A study of Mus musculus with 12 samples.

Results

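The cytoplasmic ribosomal protein genes described here are the 66 autosomal genes of the deposited table whose first name is Rpl or Rps with a number, or is a P-stalk or Rpsa name. Rps6k kinase genes were left out by that rule. They are 66 of 14899 genes in the table, of which 14415 are autosomal. Of the 66, 38 encode large-subunit proteins, 24 encode small-subunit proteins and 4 carry a related name. These 4 are the paralogs Rpl7l1 and Rps27l, Rps19bp1, which is named as a binding protein of Rps19, and a row joined as Rps19-ps3 and Zfp933 that mostly spans the zinc finger gene. The genes lie on 18 chromosomes, and 10 rows carry joined names, several of them with a small nucleolar RNA of an intron. The X-linked Rpl10 and Rps4x were not among them.

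Polyadenylated RNA was sequenced from hybrid mouse cells of 129Sv and Cast/EiJ parentage, so that a read covering a base that differs between the strains can be assigned to an allele. The groups were 4 clonal neural progenitor (NPC) lines from the XX embryonic stem (ES) line F1-21.6 (clones 129, C2, G4 and E1.2) and 4 from the XY ES line F1-23 (clones mC3, mE6, mB4 and mG3). They were set against the F1-21.6 and F1-23 ES lines themselves, with 1 library for each clone and line. The ES lines had been grown with LIF on mitomycin-treated mouse embryonic fibroblasts. Clone 129 is the name of an XX clone and is written here as clone 129, while 129 alone means the 129Sv allele. In the labels the XX clones carry a name prefix of their own, and the XY clones share theirs with both ES lines. Among clones, line and library set cannot be told apart. Between the XX clones and the XX ES line, cell type and library set cannot be told apart either.

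Every ribosome holds a single copy of nearly all of these proteins, and their genes are transcribed at high level in growing cells. Their messenger RNAs begin with a pyrimidine tract, the TOP motif, through which mTOR signalling controls their translation. Mammalian genomes also hold many processed pseudogenes of these genes, which resemble the spliced messenger RNA. They are widely used as a housekeeping set, although their output follows the growth rate of the cell.

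The start of these genes is shown because many of them share a sequence there. RefSeq promoters (GRCm38.p6) were found for 48 of the 66 genes, and each of their 59 entries matched mm9 exactly once at its gene. The motif searched was a C followed by at least 6 C or T, on the transcribed strand from 20 bases before to 30 bases after the listed start. It was present in 31 of the 48 genes (64.6%), in 14 of 58 mitochondrial ribosomal protein genes (24.1%) and in 6769 of 27025 genes of the promoter table (25%). In the lines below, 70 bases are given from 40 before the start to 30 after it, and capitals mark the tract. Rps6, Rpl14 and the Rpl35a entry shown hold it, while other Rpl35a entries lack it. Rpl37a and Rps28, both strongly skewed to Cast and lowered in NPC clones, have no match in the window. Rps10, which is also skewed to Cast and lowered, holds the tract, as does Rps7, which fell the most. A link of the tract with skew or level was not tested.
Rps6, chr4:86503242-86503311, minus strand: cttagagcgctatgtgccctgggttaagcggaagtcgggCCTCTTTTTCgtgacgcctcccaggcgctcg
Rpl14, chr9:120480594-120480663, plus strand: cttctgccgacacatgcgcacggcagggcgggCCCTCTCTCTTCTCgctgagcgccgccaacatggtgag
Rpl35a, chr16:33056528-33056597, plus strand: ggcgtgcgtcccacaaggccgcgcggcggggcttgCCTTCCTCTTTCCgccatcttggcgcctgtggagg
Rpl37a, chr1:72757794-72757863, plus strand: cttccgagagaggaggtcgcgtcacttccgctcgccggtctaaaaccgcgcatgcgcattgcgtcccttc
Rps28, chr17:33961478-33961547, minus strand: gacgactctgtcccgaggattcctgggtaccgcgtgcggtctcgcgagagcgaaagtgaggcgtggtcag
A second motif, CCGGAAG on either strand within 300 bases of promoter, which can overlap the tract when read on the other strand, was present in 21 of 59 entries (35.6%). It was present in 31.2% of mitochondrial ribosomal protein entries and in 8.86% of all 32851 entries of the table.

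The libraries held 61375911 to 119266777 counts, and the 66 genes took 0.344% to 0.727% of them in NPC clones, against 1.29% and 1.28% in the ES lines, XX and XY. A count is an observation over a position that differs between the strains, so it depends on how many such positions a gene has. Levels between genes are therefore given in FPKM, the authors' length- and depth-scaled fragment value. Of the 66 genes, 61 had at least 20 counts in every library, and the other 5 were Rps26, Rpl36, Rps10, Rpl6 and Rpl29. Rps26 shows the limit, with 3 to 22 counts in the NPC clones at 371 to 777 FPKM. The labelled cell types matched the pluripotency and neural progenitor markers. Summed over the 5 of 10 listed markers in the table, pluripotency genes had 25.2 to 47.9 library-scaled counts (CPM) in NPC clones and 1286 to 2438 in ES lines. The sum of 7 of 8 neural progenitor markers was 4190 to 7414 CPM in NPC clones and 414 to 440 in ES lines, with Fabp7 and Olig2 at 0 in both ES lines, and that of 7 of 8 fibroblast markers was 4.04 to 49.2 CPM in NPC clones and 52.6 to 102.6 in ES lines. The part of the feeder fibroblasts in the results was not tested. Neuron markers (4 of 6) summed to 14.4 to 264.7 CPM in NPC clones and 5.69 to 12.3 in ES lines. For astrocyte markers (4 of 5) the sums were 79.9 to 393.8 and 145.8 to 199.1 CPM, so clones lay on both sides of the ES lines. Oligodendrocyte markers (3 of 5) had 197 to 411 and 184 to 204 CPM, and endoderm markers (2 of 6) 0 to 6.10 and 2.35 to 2.62 CPM.

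The first question was whether this housekeeping set uses both alleles equally. As a set it was balanced, but gene by gene it was not. The median 129 share over the 61 genes was 51.1% in the mean of the NPC clones, and the interquartile range was 42.5% to 64.2%. For 10446 autosomal genes with the same minimum it was 46.6% to 53.8%. The mean share was at most 40% or at least 60% in 32 of the 61 genes (52.5%), against 5 of 63 mitochondrial ribosomal protein genes (7.94%) and 18.2% of all autosomal genes. It lay outside 15% to 85% in 10 of the 61 (16.4%), in 0 of the 63 mitochondrial ones and in 1.45% of all. The median distance from 50% was 11.1 points for the 61 genes, 2.71 points for the mitochondrial ones and 3.58 points for all.

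**Figure D1:**
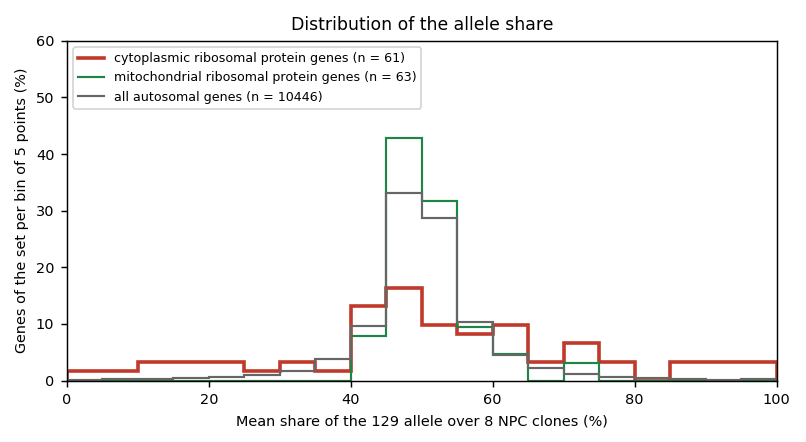
The mean share of the 129 allele over 8 NPC clones (x axis, percent) is plotted as the percent of genes in each bin of 5 points (y axis) for 61 cytoplasmic and 63 mitochondrial ribosomal protein genes and 10446 autosomal genes with at least 20 counts in every library. The cytoplasmic set is spread over the whole axis, with 26.2% of its genes between 45% and 55%, against 74.6% of the mitochondrial set and 61.8% of all genes.

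This imbalance stood in the same direction from library to library. The 129 share lay on the same side of 50% in all 10 libraries for 41 of the 61 genes (67.2%), 23 of them toward 129 and 18 toward Cast, against 24.7% of all autosomal genes. Among genes with at least 1000 counts in every library it did so for 22 of 28 (78.6%), against 29.2% of all autosomal genes at that depth. Across the 61 genes the NPC mean and the ES mean of the share had a Pearson correlation of 0.973, against 0.462 over all autosomal genes. These are descriptions over genes, which share the same libraries. In the limma test of the log2 ratio of 129 over Cast counts across the 8 clones, with Benjamini-Hochberg (BH) adjustment over all 11253 genes tested, 47 of 61 passed. Toward 129 there were 25 genes (background 26.9%) and toward Cast 22 (background 26.2%), where 53.1% of all genes passed in either direction. Large-subunit genes gave 14 toward 129 and 15 toward Cast of 35, and small-subunit genes gave 11 and 6 of 22.

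**Figure D2:**
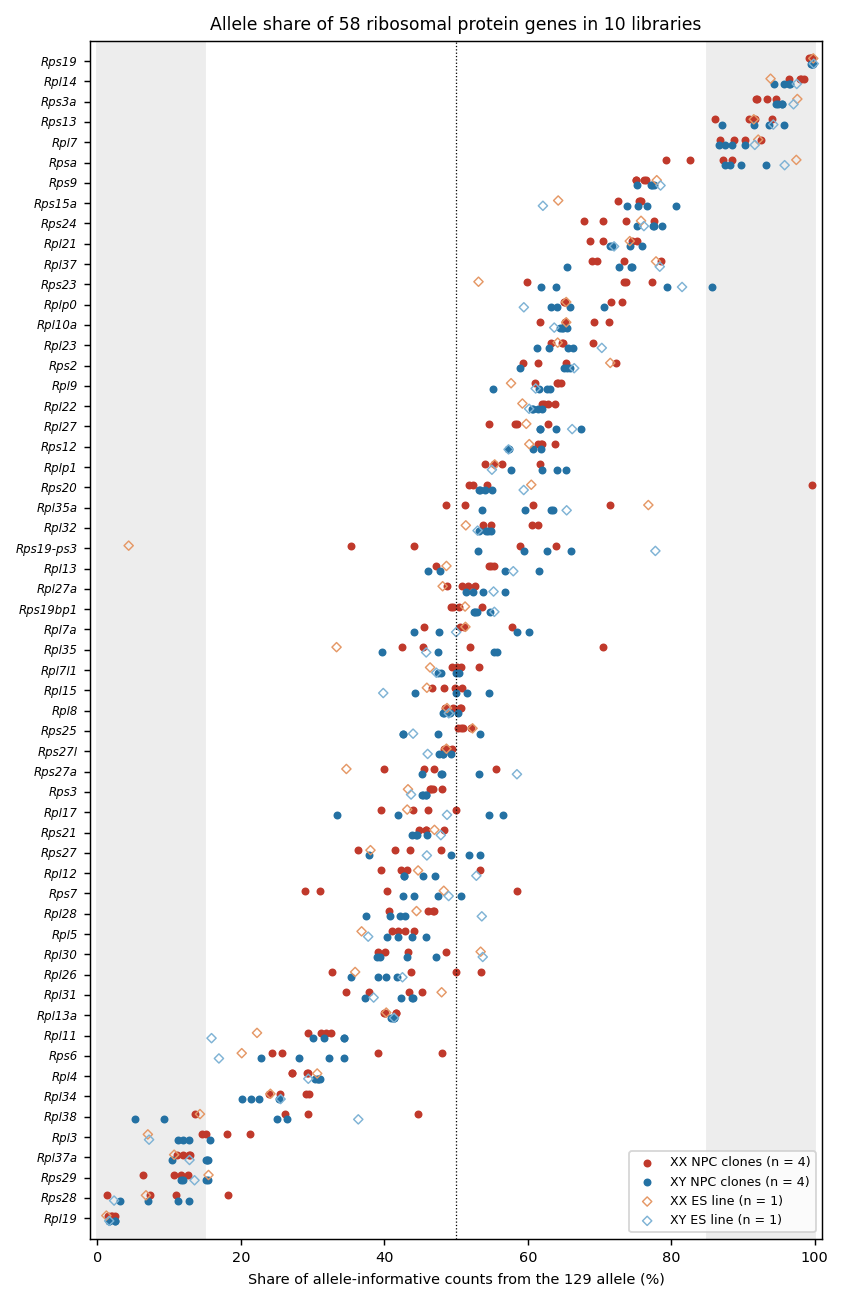
Each row is 1 of 58 ribosomal protein genes with at least 20 counts in every library, ordered by its mean over NPC clones, and the x axis is the percent of allele-informative counts from the 129 allele. Points are single libraries (filled, 4 XX and 4 XY NPC clones; open, the XX and XY ES lines), and grey bands mark shares of at most 15% and at least 85%. Rps19 at the top lies at 99.2% or above in all 10 libraries, Rpl19 at the bottom at 2.46% or below, and Rps20 has a single point at 99.6%.

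The strongest skew toward 129 was that of Rps19, a small-subunit protein mutated in human Diamond-Blackfan anaemia (chr7:25669733-25674821, mm9). Its 129 share ran from 99.2% through a median of 99.5% to 99.8% in the NPC clones, and was 99.8% and 99.9% in the ES lines, XX and XY, from 5216 to 17828 counts. The log2 ratio in NPC clones was 7.83 ± 0.12 (SE, n = 8, limma adjusted p = 2.35e-08). No library showed more than a trace of the Cast allele. Rps19 had 6 near-identical copies of its coding sequence elsewhere in the genome, as set out further on.

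Rpl14 and Rpl7 of the large subunit and Rps3a and Rps13 of the small subunit were also 129-rich in every library. Rpl14 had a share of 94.2% to 98.5% in the NPC clones (median 96.5%) and 93.8% and 97.5% in the ES lines, XX and XY. Rps3a had 91.8% to 95.5% in the NPC clones (median 94.5%) and 97.6% and 97.0% in the ES lines. Both genes kept the same allele in front in all libraries, and their NPC and ES values overlapped for Rpl14 but not for Rps3a. Rps13 had 86.0% to 95.7% in the NPC clones (median 91.6%) and 91.5% and 94.2% in the ES lines, from as few as 36 counts. Rpl7 had 86.6% to 92.5% in the NPC clones (median 88.6%) and 92.1% and 91.6% in the ES lines. These 4 genes and Rps19 had 129 shares of at least 85% in all 10 libraries.

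Toward Cast, Rpl19, a large-subunit protein that reaches across to the small subunit, stood at the far end (chr11:97888024-97891807). Its 129 share was 1.45% to 2.46% in the NPC clones (median 1.92%) and 1.24% and 1.63% in the ES lines, XX and XY, with 3501 to 7450 counts. The log2 ratio in NPC clones was -5.64 ± 0.10 (SE, n = 8, limma adjusted p = 4.13e-08). No library showed more than a trace of the 129 allele. Rps28 had a share of 1.27% to 18.2% in the NPC clones (median 9.19%) and 6.76% and 2.31% in the ES lines. Rps29 had 6.35% to 15.5% (median 11.8%) and 15.5% and 13.5% in the ES lines. Both encode small-subunit proteins, and their spread comes with depths of 79 to 389 and 126 to 340 counts. Rpl37a of the large subunit had 10.4% to 15.4% in the NPC clones (median 12.8%) and 10.7% and 12.8% in the ES lines. Among genes with fewer counts, Rps10 had 2.86% to 27.6% in the NPC clones, from 14 to 67 counts, and 7.58% and 9.78% in the ES lines.

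Monoallelic calls were counted within each library. The call needed 20 or more counts, 85% or more of them from 1 allele, and an exact binomial test past BH 0.05 over the library's autosomal genes. In NPC clones 10 to 12 of 61 to 64 testable ribosomal protein genes were called (15.6% to 18.8%), and in the ES lines 14 of 64 (XX, 21.9%) and 14 of 65 (XY, 21.5%). Over all autosomal genes the share was 5.83% to 8.37% in NPC clones and 5.87% and 5.12% in the ES lines. In all, 18 of the 66 genes were called in at least 1 library. Of the 61 genes testable throughout, 6 were called in all 10 libraries (9.84%, against 0.392% of all autosomal genes), 10 in some (16.4% against 12.1%) and 45 in none (73.8% against 87.5%). The 10 and the 6 together compare with a background of 12.5% of genes called in any library.

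Several of the genes called in some libraries had shares near the limit. Rps28 was called in 9 libraries, Rpsa in 8, Rpl37a and Rps29 in 7 each, Rps10 in 7 of 8 testable, Rpl3 in 6 and Rpl38 in 4. Rps23, a protein of the decoding centre, was called in mE6 alone at 85.7%. The zinc finger row Rps19-ps3 was called for Cast in the XX ES line alone, from 23 counts. Rpl6 had at least 20 counts in the XY ES line alone, where all 33 were 129.

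Rps20, a protein of the head of the small subunit, was the case of a clone that stood apart (chr4:3761620-3762747). In clone 129 its 129 share was 99.6% (exact 95% interval 99.5% to 99.7%), with 37 Cast counts among 9793. In the other 7 clones it was 51.8% to 54.98%, and the ES lines had 60.5% (XX) and 59.4% (XY). By level, the 129 allele had 144.4 CPM in clone 129 and 106 ± 14.9 CPM in the other clones (SD, n = 7). The Cast allele had 0.548 CPM in clone 129 and 92.7 ± 14.1 CPM in the others. Both alleles together had 145 CPM in clone 129 and 199 ± 28.6 CPM in the others, whose lowest value was 158.5. In CPM clone 129 was the lowest clone in total and the highest for the 129 allele, although a single library has no replicate error. In FPKM it had 907, between E1.2 at 766 and the other clones at 1139 to 1682. Around it, genes with at least 20 counts in clone 129 were mixed. On the side of lower coordinates, Tgs1 and Tmem68 had 129 shares of 50.7% and 58.02% in clone 129, within the ranges of the other clones (43.1% to 52.4% and 51.1% to 58.3%). On the other side, Plag1 had 30.4% from 23 counts and Chchd7 37.0% from 165 counts in clone 129, where both varied from clone to clone (0% to 100% and 12.3% to 100%). Further on, Impad1 had 73.1% in clone 129 and 64.6% to 70.6% elsewhere, Fam110b had 100% from 22 counts in clone 129 and 27.5% to 47.9% in the others, and Nsmaf had 47.8% and 46.3% to 52.0%.

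**Figure D3:**
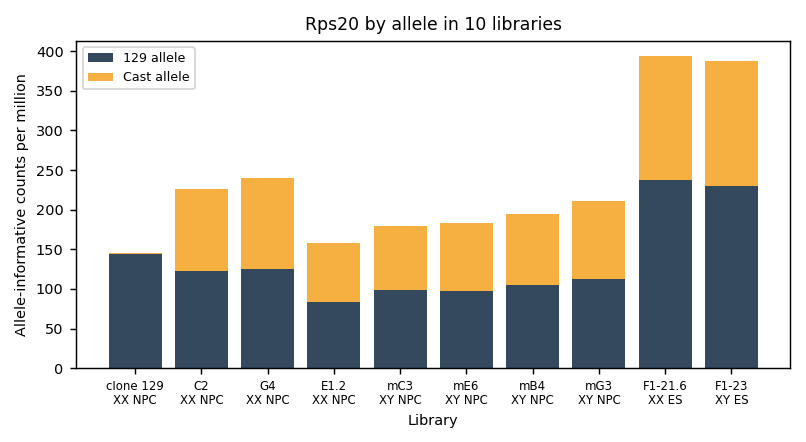
Bars give the allele-informative counts in CPM (y axis) of Rps20 in each library (x axis; 4 XX NPC clones, 4 XY NPC clones, the XX and XY ES lines), split into the 129 and Cast alleles. Clone 129 holds 0.548 CPM of the Cast allele, where the other 7 clones average 92.7 CPM.

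Beyond Rps20, the widest ranges among NPC clones with at least 100 counts in each were those of Rps19-ps3, Rps23, Rps6, Rpl17 and Rpl35a, at 22.9 to 30.7 points. Rps6, the substrate of S6 kinase, had a 129 share of 48.0% (clone 129), 39.1% (C2), 24.3% (G4) and 25.7% (E1.2) among XX clones, and 34.3% (mC3), 28.1% (mE6), 32.3% (mB4) and 22.7% (mG3) among XY clones. The XX ES line had 20.1% and the XY ES line 16.9%, below every clone. Rps23 ran from 59.9% to 85.7% in the clones and was 53.1% and 81.5% in the ES lines. Rpl17 (33.4% to 56.6%) and Rpl35a (48.6% to 71.5%) crossed 50% between clones. These 4 genes have 11 to 22 near-identical copies. Over 60 genes the range of the share among clones had a Spearman correlation of 0.419 with the number of copies. The distance of the mean share from 50% had one of 0.0662. By class its median was 8.2 points for 12 genes with 0 or 1 copy, 13.45 for 22 with 2 to 6 and 11.6 for 26 with 7 or more. Mean shares outside 15% to 85% were found in 1, 4 and 5 genes of these classes.

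The 129 share was next compared between cell types. By limma, 11 of 61 genes (background 21.5% of 10446) changed their log2 ratio between NPC clones and ES lines, 6 toward 129 (background 11.1%) and 5 toward Cast (background 10.4%). Rpsa, the small-subunit protein also known as a laminin receptor, had a share of 79.2% to 93.2% in the NPC clones (median 87.8%) and 97.4% and 95.8% in the ES lines, XX and XY. Its log2 ratio fell by 2.06 ± 0.38 (SE, adjusted p = 0.00576), and the groups did not overlap. Without the XX ES line its change was -1.36 and did not pass (adjusted p = 0.0935). Rps19 (-1.34 ± 0.25, adjusted p = 0.00617) and Rps3a (-1.17 ± 0.22, adjusted p = 0.00554) also fell, although 129 stayed above 90% in both. For Rps19 the change lies within a trace of the Cast allele, at 23 to 54 Cast counts per library. Rpl3, which lies at the peptidyl transferase centre, had a share of 11.2% to 21.2% in the NPC clones (median 14.9%) and 7.02% and 7.19% in the ES lines. Its ratio rose by 1.19 ± 0.21 (adjusted p = 0.00428). Rpl11 had 29.3% to 34.4% in the NPC clones (median 31.7%) and 22.2% and 15.9% in the ES lines, with a rise of 1.01 ± 0.16 (adjusted p = 0.0027). In each of these 5 genes the shares of NPC clones and ES lines did not overlap, and in each the allele in front in ES lines was in front in NPC clones too. The others included Rps15a, Rpl5 and Rps3 (toward 129) and Rpl30 (toward Cast). In Rpl30 the allele in front differed, with a 129 share of 38.95% to 48.55% in the NPC clones. It was 53.4% and 53.7% in the ES lines, XX and XY. Line was a covariate, so without the XX ES line the fit compares the XY clones with the XY ES library alone. Without the XY ES line it compares the XX clones with the XX ES library alone, across library sets. The library set of both ES lines and the XY clones gives the first of these contrasts again and is no separate check. Without the XX ES line Rps19 (adjusted p = 0.0636), Rps3a (-0.75, adjusted p = 0.0861) and Rpl3 (adjusted p = 0.0708) did not pass either.

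Between XX and XY NPC clones the ratio differed for 0 of 61 genes by limma (background 0.0267% of 11253), with 7 at an unadjusted p under 0.05. The median absolute difference was 0.15 on the log2 scale for the ribosomal protein genes and 0.12 for all genes. With precision weights from the counts it was 0 genes as well.

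The level of the genes differed widely in the deposited FPKM. The mean over NPC clones ran from 2.48 to 1500 FPKM with a median of 90.9. Rpl32 had 901 to 2055 FPKM in the NPC clones (median 1507) and 3372 and 3487 in the ES lines, XX and XY. Rps20 averaged 1306 ± 331 FPKM, Rps21 1303 ± 269 and Rps9 1252 ± 204 in the clones (SD, n = 8). These 4 genes were measured in the same clones, and the differences between their means were not tested. At the other end, Rpl29 averaged 2.48 ± 0.79 FPKM, Rpl21 3.97 ± 0.96, the zinc finger row Rps19-ps3 4.80 ± 0.79 and Rpl17 7.60 ± 2.17. Of the P-stalk genes, whose proteins recruit translation factors, Rplp1 averaged 1187 ± 264 FPKM and Rplp0 243.5 ± 61.8.

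This order moved with the number of copies in the genome. A copy was a match of at least 95% identity over at least 80% of the coding sequence, away from the gene itself, in mm9. Of 65 genes with a coding sequence 61 had at least 1 copy (93.8%), with a median of 6 and a maximum of 56 for Rpl21, against 11 of 66 mitochondrial ribosomal protein genes (16.7%). Rpl8, Rps3, Rps27l and Rps19bp1 had none. The 12 genes with 0 or 1 copy had a median of 582 FPKM, the 25 with 2 to 6 copies 263 FPKM and the 28 with 7 or more 44.1 FPKM. Spearman's correlation over the 65 genes was -0.688. Rpl21 (56 copies), Rpl29 (28) and Rpl17 (22) are 3 of the 4 lowest genes. How the authors' tools placed reads that match several places is not given in the sources used here, so the levels and shares of these genes are uncertain, and the part of the copies in them was not tested. Of the 10 genes with a mean share outside 15% to 85%, Rpl14 has 1 copy, Rpl37a has 4 and Rps13 has 5. Rps19 and Rps29 have 6 each, Rpl19, Rps3a and Rpl7 have 7 each, Rps28 has 8 and Rpsa has 11. Rps20 has 2.

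**Figure D4:**
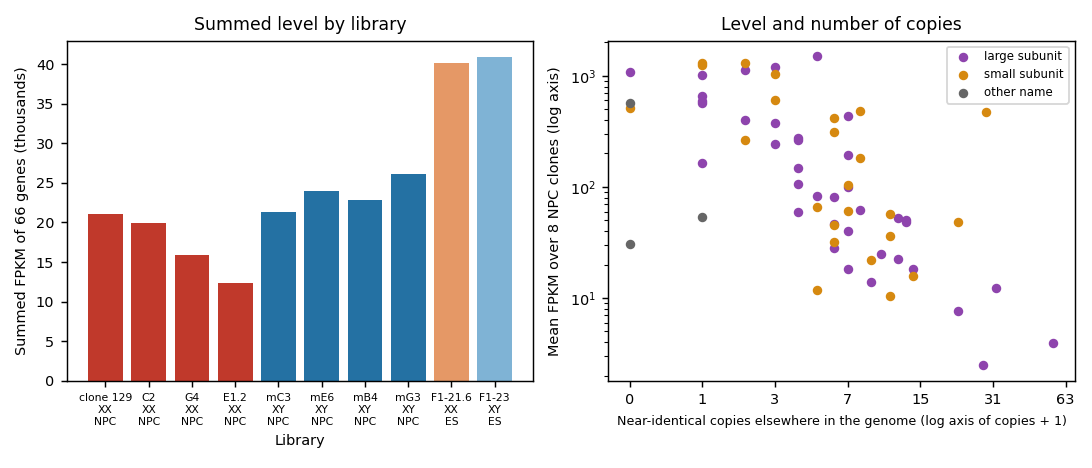
Left, the summed FPKM of the 66 genes (y axis, in units of 1000) in each library (x axis; red, XX NPC clones; blue, XY NPC clones; orange and light blue, the XX and XY ES lines). Right, the mean FPKM over 8 NPC clones (y axis, log) of 65 genes against their near-identical copies elsewhere in mm9 (x axis, log of copies + 1), by subunit, with lower levels at higher copy numbers (Spearman -0.688).

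The comparison of NPC clones with ES lines asked whether the set keeps its level through differentiation. Most of it was lower in NPC clones. By edgeR's quasi-likelihood test on counts, with BH adjustment over 14561 genes, 38 of 66 genes were lower (background 29.7%), 5 were higher (background 33.3%) and 23 did not pass. The median log2 change was -0.83 for the set and 0.11 for all genes tested, and with total-count scaling the median of all genes was -0.05 and 41 of the set were lower and 4 higher. By limma on log2(FPKM + 1) 58 genes were lower (background 32.5%) and 2 higher (background 31.8%), with a median of -1.04. In FPKM all 8 clones lay below both ES lines for 58 of the 66 genes (background 31.3%), and in CPM for 37 (background 30%). The summed FPKM of the 66 genes was 12395 to 26112 in NPC clones and 40154 and 40909 in the ES lines, XX and XY. In bulk RNA, fewer cells of a type and less RNA per cell cannot be told apart. Line was a covariate, so without the XX ES line the fit compares the XY clones with the XY ES line, and the median change was -0.52. Without the XY ES line it compares the XX clones with the XX ES line, and the median was -1.01. This larger fall is in the contrast that crosses library sets, where cell type and library set cannot be told apart. The set of both ES lines and the XY clones repeats the first of these contrasts, with a median of -0.51.

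Large-subunit genes gave 20 lower and 3 higher of 38, and small-subunit genes 16 lower and 1 higher of 24. Rpl8, a protein beside the peptidyl transferase centre with no near-identical copy (chr15:76734501-76736748), gave the deepest view. It had 105 to 195 CPM in the NPC clones (median 156) and 424 and 428 CPM in the ES lines, XX and XY, a log2 change of -1.49 ± 0.16 (SE, adjusted p = 4.75e-05). In FPKM it was 789.5 to 1381 in the clones and 2875 and 2933 in the ES lines, and in both units every clone lay below both ES lines. Rpl32 had 21.4 to 82.5 CPM in the NPC clones (median 62.0) and 149.9 and 149.5 CPM in the ES lines, a change of -1.50 ± 0.31 (adjusted p = 0.00243). Without the XX ES line its change was -1.02 and did not pass (adjusted p = 0.0805).

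Rps7, mutated in Diamond-Blackfan anaemia in humans, fell the most in counts (chr12:29315712-29320818). It had 0.363 to 1.396 CPM in the NPC clones (median 0.750) and 6.03 and 4.72 CPM in the ES lines, XX and XY, a change of -3.10 ± 0.36 (adjusted p = 8.21e-05). Without the XX ES line, which leaves the XY clones against the XY ES line, the change was -2.06. Without the XY ES line, which leaves the XX clones against the XX ES line, it was -3.80. In FPKM it had 29.96 to 92.9 in the clones and 145 and 152 in the ES lines, and limma gave -1.38 (adjusted p = 0.000722). Both units put every clone below both ES lines, with a smaller change in FPKM. Rpl37a (-1.76 ± 0.26, adjusted p = 0.000392), Rps28 (-1.67 ± 0.38, adjusted p = 0.00386) and Rps10 (-1.59 ± 0.42, adjusted p = 0.00851) completed the 6 largest falls. Each had under 16 CPM in every library, with mean FPKM of 273, 182 and 267 in the NPC clones. Without the XX ES line the calls of Rps28 (-1.07, adjusted p = 0.118) and Rps10 (-1.09, adjusted p = 0.156) were lost.

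The 5 genes that rose in counts did so unevenly across units. Rpl5, which carries 5S ribosomal RNA into the large subunit together with Rpl11, had 82.5 to 157.5 CPM in the NPC clones (median 118) and 51.7 and 51.6 CPM in the ES lines, XX and XY. Its change was 1.18 ± 0.18 (adjusted p = 0.00036), and it rose in FPKM too, by 0.62 (limma adjusted p = 0.0228). Its FPKM was 28.4 to 62.0 in the clones and 28.9 and 29.1 in the ES lines, and E1.2 was the 1 clone below them. Rpl11, its partner, had 11.9 to 23.3 CPM in the clones (median 19.2) and 9.50 and 10.4 CPM in the ES lines, a change of 0.88 ± 0.18 (adjusted p = 0.00262). In FPKM it went the other way, with 11.2 to 47.3 in the clones and 45.2 and 45.6 in the ES lines (limma -0.81, adjusted p = 0.0403). Rps15a (0.82 ± 0.29, adjusted p = 0.031) likewise had a FPKM change of -0.72 (limma adjusted p = 0.00634). Its call on counts was lost with total-count scaling (adjusted p = 0.0798), without the XX ES line (0.178), without the XY ES line (0.104) and without clone mE6 (0.0511). Rpl21 (0.64 ± 0.12, adjusted p = 0.00123) had one of -0.28, which did not pass (limma adjusted p = 0.148). In all, 13 genes had a positive change in counts and a negative one in FPKM, and Rpl11, Rps15a and Rpl21 have 6, 6 and 56 copies. The row Rps19-ps3 rose in both units, by 2.45 ± 0.38 in counts (adjusted p = 0.000453), and mostly holds a zinc finger gene.

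**Figure D5:**
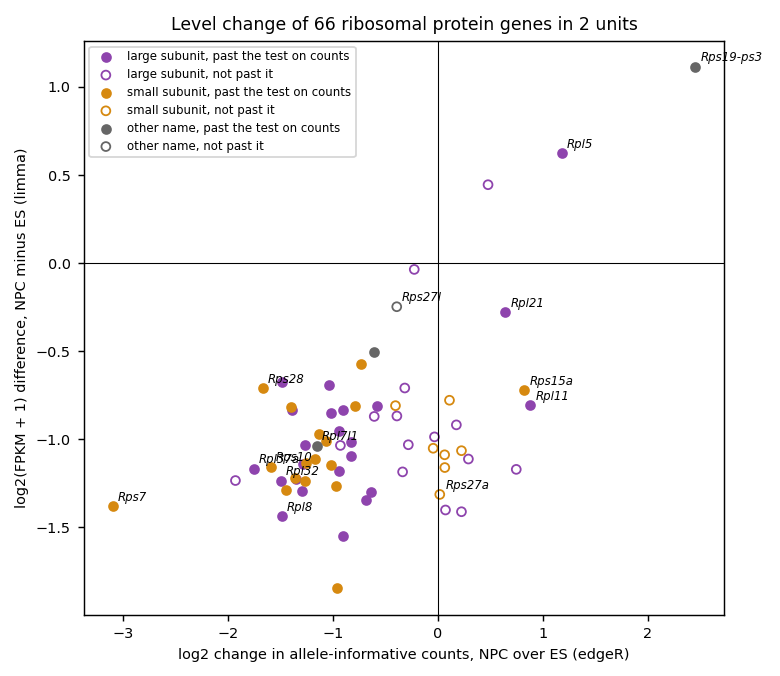
The log2 change in allele-informative counts of NPC clones over ES lines (x axis, edgeR) is plotted against the difference in log2(FPKM + 1) (y axis, limma) for 66 genes, by subunit, with filled points past the test on counts at BH 0.05. Most points lie in the lower left quadrant, and Rpl11, Rps15a and Rpl21 are among the 13 genes in the lower right one, where the units differ in sign.

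The P-stalk gene Rplp0 had 13.3 to 48.4 CPM in the NPC clones (median 25.7) and 67.5 and 66.8 CPM in the ES lines, XX and XY, and fell by 1.39 ± 0.28 (adjusted p = 0.00194). Rplp1 fell by 0.83 ± 0.25 (adjusted p = 0.0154), and Rpsa fell by 1.13 ± 0.19 (adjusted p = 0.000799). The paralogs parted. Rpl7l1 fell by 1.15 ± 0.18 (adjusted p = 0.000423), while Rps27l, a target of p53, had a change of -0.39 ± 0.20 that did not pass (adjusted p = 0.112). Rps27l had 349 to 760 FPKM in the NPC clones and 733.5 and 579 FPKM in the ES lines, and these overlapped. The difference between the paralogs was not tested. Their mean 129 shares in NPC clones were 49.9% for Rpl7l1 and 48.5% for Rps27l. By limma the small skew of Rps27l toward Cast passed (log2 ratio -0.08 ± 0.02, adjusted p = 0.00571), with shares below 50% in all 10 libraries, and that of Rpl7l1 did not (adjusted p = 0.898).

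Other genes of the translation machinery were lower as well, where 29.7% of all genes were lower and 33.3% higher. Of 58 listed ribosome biogenesis genes 55 were lower in NPC clones and 0 higher, with a median change of -1.17. The largest were Dkc1, the X-linked pseudouridine synthase of ribosomal RNA (-2.70 ± 0.43, adjusted p = 0.000553), and Npm1, a nucleolar chaperone (-2.18 ± 0.28, adjusted p = 0.00014). Dkc1 had 23.1 ± 6.99 CPM in the NPC clones (SD, n = 8) and 219.4 and 64.8 CPM in the ES lines, XX and XY, which differ. Of 13 genes of translation elongation and other TOP messages, Npm1 among them, 12 were lower and 1, Naca, was higher (2.56 ± 0.35, adjusted p = 0.000241). The Naca value rests on 3.22 ± 1.57 CPM in the NPC clones (SD, n = 8), and by limma on FPKM 12 of the 13 were lower and 0 higher. Of 23 initiation genes 17 were lower and 2 higher, with Eif4ebp1, an inhibitor of cap-dependent initiation and target of mTOR, at -3.22 ± 0.32 (adjusted p = 3.55e-05) and Eif1a at -1.93 ± 0.30 (adjusted p = 0.000507). Eif5 (1.50 ± 0.29, adjusted p = 0.0017) and Eif4g2 (1.38 ± 0.16, adjusted p = 9.76e-05) were higher. Of 66 mitochondrial ribosomal protein genes 39 were lower and 4 higher, with a median of -0.53. Gnb2l1, the ribosome-bound scaffold Rack1, was lower (-1.32 ± 0.16, adjusted p = 0.0001), and by limma on FPKM it was lower too. The X-linked Rps4x was lower (-1.67 ± 0.40, adjusted p = 0.00515), and Rpl10 had -0.46 ± 0.23, which did not pass (adjusted p = 0.107).

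Genes in which loss of a copy causes disease in humans or mice, mostly Diamond-Blackfan anaemia, were listed separately. Of 24 listed, 21 were among the 66, and 10 of these were lower (background 29.7%) and 2, Rpl5 and Rpl11, higher (background 33.3%) in NPC clones. Monoallelic calls in at least 1 library were made for 7 of the 21, among them Rps19, Rps20, Rps28 and Rps29, while 14 had none. The whole set had such calls in 18 of 66 genes, and the background was 12.5% of autosomal genes testable in all libraries.

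Between the lines, the ribosomal protein genes of XX NPC clones lay below those of XY NPC clones. By edgeR 3 of 65 genes were lower in XX clones (background 0.412% of 13591) and 0 higher (background 0.876%), and 38 had an unadjusted p under 0.05. The fitted change was below 0 in 62 of 65 genes (95.4%, against 49.2% of all genes), with a median of -0.50, against 0.01 for all genes and -0.12 for mitochondrial ribosomal protein genes. Other translation lists lay below 0 as well, with a median of -0.41 for ribosome biogenesis genes (56 of 58 below 0), -0.44 for elongation and TOP genes (11 of 13) and -0.31 for initiation genes (19 of 23). Rpl26 of the large subunit had 1.07 (clone 129), 1.07 (C2), 1.12 (G4) and 1.29 CPM (E1.2) among XX clones, and 2.60 (mC3), 1.99 (mE6), 2.83 (mB4) and 2.99 CPM (mG3) among XY clones. The lines did not overlap, and the change was -1.20 ± 0.22 (adjusted p = 0.0472). Rpl7 had 6.51, 5.83, 5.05 and 5.06 CPM in the XX clones and 10.5, 11.2, 12.5 and 11.3 CPM in the XY clones, a change of -1.03 ± 0.14 (adjusted p = 0.0347). Rpl23, a large-subunit protein that also binds Mdm2, had 47.8, 57.0, 51.5 and 39.4 CPM in the XX clones and 71.1, 85.5, 79.7 and 84.6 CPM in the XY clones. Its change was -0.72 ± 0.13 (adjusted p = 0.044), again without overlap.

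How many genes pass in this comparison depended on the test and on single clones. DESeq2 called 30 lower (background 5.68%) and limma on FPKM 18 lower (background 2.66%), led by Rpl35 with -1.90 (adjusted p = 0.00313). Leaving out 1 clone gave 0 to 2 with edgeR. The count was 1 without C2 or without E1.2, and 0 without G4 or without any single XY clone. Rpl26 lost its call without any 1 clone (adjusted p = 0.0508 to 0.134), and in FPKM Rpl7 (-0.47, limma adjusted p = 0.0979) and Rpl23 (-0.52, limma adjusted p = 0.141) did not pass. In FPKM all 4 XX clones lay below all 4 XY clones for 48 of the 66 genes (background 12.4%), and in CPM for 35 (background 9.2%). Clone E1.2 had the lowest FPKM of the 8 clones in 61 genes and mG3 the highest in 61. Summed FPKM was 21132 (clone 129), 19919 (C2), 15869 (G4) and 12395 (E1.2) among XX clones, and 21290 (mC3), 24011 (mE6), 22820 (mB4) and 26112 (mG3) among XY clones. Line, sex chromosomes and library set cannot be told apart here. In the ES lines, which share a library set, the sums were 40154 in the XX line and 40909 in the XY line.

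Whether the change from ES lines to NPC clones differed between the lines was tested as an interaction. By edgeR 0 of 66 genes passed (background 0.101% of 14848), with 8 at an unadjusted p under 0.05, among them Rpl7, Rpl26 and Rps7. DESeq2 called 4 with a larger fall in the XX line (background 1.41%), which were Rpl7, Rpl26, Rps7 and Rpl15, and limma on FPKM called Rpl7a (background 0.923%). The median interaction was -0.50 on the log2 scale for the set and 0.06 for all genes. With 1 ES library per line, this test rests on the spread of the clones, so its precision is low. Only the XX clones carry a name prefix of their own, so the interaction and library set cannot be told apart.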

How the data were processed

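Polyadenylated RNA of 10 libraries (8 NPC clones, 2 ES lines) was sequenced; 2 repeat libraries of the 12 labelled were not analysed here. The authors deposited 1 table with, per gene and library, counts over positions that tell the strains apart, the share of those counts from 129, kept in that file as a ratio from 0 to 1 or "nd", and FPKM. The submitters' processing notes name TopHat (1.4.0), Cufflinks (1.3.0), SAMtools and the build mm9, without tying a step to a column. Whether counts use strand, and how reads of several places were placed, is not given in the sources used here. Counts times share were whole to within 0.01. Reads over several variants may count more than once, so intervals cover counting error only and are too narrow. Clones were taken as replicates. The labels do not say that cultures were separate beyond the clones, so p-values measure the spread between these libraries. Each ES line has 1 library, so p-values of NPC against ES hold no spread between repeat cultures of an ES line.

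Summed counts were tested with edgeR 4.0.16 (TMM, filterByExpr, quasi-likelihood F test), log2 ratios of (129 count + 0.5) over (Cast count + 0.5) with limma 3.58.1 (eBayes with trend, at least 20 counts in each library, line as covariate), all in R 4.3.3 over all genes with BH 0.05. CPM of single genes used TMM library sizes, and the summed CPM of cell type markers used total counts. Alternatives were DESeq2 1.42.0, total-count scaling, no count filter, limma on log2(FPKM + 1), other count limits and pseudocounts, and leaving out each library. Count and ratio fits of NPC against ES held line as a covariate. Without 1 ES line, or with both ES lines and the XY clones alone, they compare 1 line's clones with 1 ES library. FPKM changes are on the log2(FPKM + 1) scale, which understates low genes. Scripts were tested on simulated data. Copies were searched with BLAST+ 2.17.0 in mm9 (NCBIM37). Single-library intervals are exact Clopper-Pearson 95% intervals.

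The genes and all lists were chosen with earlier results of these data known. Named genes were those called monoallelic in any library, the 10 largest skews, the 6 largest called NPC and ES changes each way, the 4 largest called XX and XY changes each way, the 6 widest ranges among clones with at least 100 counts, the 4 highest and 4 lowest FPKM, the 4 largest called ratio changes, the P-stalk genes, Rpsa and the paralogs. From the other lists the 2 largest called changes each way were named. Genes named outside this rule, such as the remaining called ratio changes, the neighbours of Rps20 and Rpl35, were chosen after their values were seen. A few genes that the rule names are not reported here, and counts include them.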

Additional observations from a re-analysis of the deposited data

Results flagged for a closer look

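In groups of 4 clones, a value was marked where its gap to the nearest clone took a larger part of the group's range than Dixon's 95% limit allows. For the named genes, 129 shares and FPKM gave 144 such groups, of which 5 were marked. Chance marks about 1 in 20 groups. The 129 share of Rps20 in clone 129 was 99.6%, against 51.8% to 54.3% in the other XX clones. The share of Rpl37a in mE6 was 10.4%, against 15.2% to 15.4% in the other XY clones. The share of Rps15a in G4 was 72.5%, against 75.5% to 75.8% in the other XX clones. The FPKM of Rps28 in E1.2 was 146.8, against 168.8 to 172.3 in the other XX clones. The FPKM of Rpl11 in mG3 was 47.3, against 35.4 to 36.1 in the other XY clones. Of these, Rps20 is the 1 case in which the major allele took nearly all counts.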

How the results depend on the processing

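No paired analysis was possible because the replicate numbers were given in accession order and pair neither XX with XY clones nor NPC with ES libraries. For NPC against ES, limma on FPKM gave 58 genes lower and 2 higher, against 38 and 5. Leaving out 1 library gave 15 to 38 lower and 4 to 6 higher, the lowest without the XX ES line, and the set of both ES lines and XY clones gave 19 lower. In FPKM the changes of Rpl11 (-0.81), Rps15a (-0.72) and Rpl21 (-0.28) were reversed. For XX against XY clones, DESeq2 gave 30 lower and limma on FPKM 18, against 3, and leaving out 1 clone 0 to 2. For the interaction these tools gave 4 and 1 lower, against 0, and without an ES library it could not be fitted. The allele ratio between NPC and ES gave 3 to 7 toward 129 and 1 to 6 toward Cast with 1 library left out, and 3 and 1 within the set of both ES lines and XY clones. Monoallelic calls in any library were 28 at a major allele of at least 75% and 12 at 95%, against 18, and 17 to 18 with 1 library left out. The strain skew stayed at 23 to 25 toward 129 and 20 to 23 toward Cast with 1 clone left out, and the median FPKM at 85.3 to 96.5. The cause of these shifts was not tested. Without 1 ES line, or in the set of both ES lines and XY clones, the contrast itself narrows to 1 line with 1 ES library. Precision weights were chosen after seeing the data. Of 28 single-gene results, 15 kept direction and call under all alternatives run, and over all 28 there were 43 alternatives in which a call was lost. Few counts limit Rps26, Rpl36, Rps10, Rpl6 and Rpl29, and near-identical copies limit most levels. The interaction is limited by 1 ES library per line and by the library set of the XX clones.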
